A study of Mus musculus with 16 samples.

Results

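The insulin-like growth factor (IGF) genes described here were the ligands Igf1 and Igf2, the receptors Igf1r and Igf2r, the binding proteins Igfbp3, Igfbp4, Igfbp5, Igfbp6 and Igfbp7, and H19, the imprinted noncoding RNA that neighbours Igf2. They were chosen by gene symbol, and all 10 were found in both expression tables, among 21011 genes in skeletal muscle and 38933 in cortical bone. Bulk RNA-seq compared female C57BL/6 mice from the NIA colony, aged 18 months when treatment began. They received BAY2416964 (BAY), an oral inhibitor of the aryl hydrocarbon receptor (AhR), or its vehicle (VEH). BAY was given at 30 mg/kg by gavage on 5 days per week for 8 weeks, after which tissues were collected. VEH was the same ethanol, Solutol and water mixture without the compound, and neither group carried a transgene or deletion. Each tissue had 4 VEH and 4 BAY libraries, 1 per mouse, from a whole tibialis anterior (TA) muscle or from cortical bone shafts that had been digested with collagenase after stromal cells were taken from the bone. The question was whether transcripts of the IGF system differed between BAY- and VEH-treated mice in either tissue.

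IGF1 and IGF2 signal mainly through the type 1 IGF receptor, which Igf1r encodes, whereas the product of Igf2r binds IGF2 and carries it to lysosomes. The IGF binding proteins hold the ligands in serum and in the extracellular matrix and can restrain or prolong their action, and IGFBP7 binds the IGFs only weakly. In muscle IGF1 promotes fibre growth and repair, in bone it is made by osteoblasts and stored in matrix, and H19 is among the imprinted RNAs that stay expressed in adult muscle.

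Levels are given in CPM, the reads of a gene scaled to the library's total, obtained by undoing the log2 transformation and the offset of the deposited values. Genes are compared with each other only as CPM per kb of exon. The reads assigned to genes ranged from 6131919 to 9262387 in skeletal muscle and from 930306 to 6951916 in cortical bone, so that 3 reads corresponded to at most 0.489 CPM in muscle and at most 3.22 CPM in bone. The 14 muscle fibre markers were all detected in the muscle table, with a summed level of 251670 to 369249 CPM. The library from muscle VEH 3, whose column name marks it as a replacement, stood apart in other marker lists. Its summed connective tissue fibroblast markers reached 541 CPM (10 of 10 genes in the table) against 168 to 238 CPM in the other 7 libraries, and its osteoblast and osteocyte markers (6 of 12 in the table, with Bglap, Sp7, Ibsp and Sost absent) reached 159 CPM against 33.3 to 55.9 CPM. It was also highest for the cartilage and tendon list (74.6 against 16.1 to 31.2 CPM), the Schwann cell list (56.4 against 19.3 to 34.7 CPM), the macrophage list (28.3 against 11.2 to 14.3 CPM) and the osteoclast list (7.56 against 0.550 to 1.55 CPM).

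The bone libraries differed from each other much more. The summed fibre markers (14 of 14 in the table) were 27723, 1757, 376 and 533 CPM in VEH 1 to 4 and 82852, 91316, 3967 and 1065 CPM in BAY 1 to 4. The summed osteoblast and osteocyte markers (12 of 12 in the table) were 7262, 1530, 30403 and 22563 CPM in VEH and 2016, 1731, 22376 and 2313 CPM in BAY. Genes of olfactory receptors, which bone is not known to use, took 0.0513, 2.92, 0.544 and 2.24% of the CPM in VEH and 1.20, 1.03, 1.04 and 3.52% in BAY. Bone VEH 1, BAY 1 and BAY 2 were thus high in fibre transcripts, VEH 3, VEH 4 and BAY 3 in bone cell transcripts, and VEH 2, VEH 4 and BAY 4 in olfactory receptor reads.

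Coordinates follow mm39 as listed in the tables. Igf1 lies at chr10:87694127-87772905 on the plus strand and Igf2 at chr7:142204503-142220554 on the minus strand. H19 lies on the same strand of the same chromosome at chr7:142129266-142131881. Igf1r occupies chr7:67602575-67883417 (plus) and Igf2r chr17:12901293-12988552 (minus). Among the binding proteins, Igfbp3 lies at chr11:7156086-7163924 (minus), Igfbp4 at chr11:98932070-98945219 (plus), Igfbp5 at chr1:72897091-72914044 (minus), Igfbp6 at chr15:102052797-102057947 (plus) and Igfbp7 at chr5:77497087-77555889 (minus). H19 is annotated as a long noncoding RNA and the other 9 genes as protein coding. Igf2 shares its strand with the overlapping coding gene Gm49394, and its reads were in part fractional, so the share of reads given to each is uncertain. On the opposite strand, Igf2r overlaps Airn, Igfbp7 overlaps Polr2b, Igf1r overlaps Pgpep1l, Igf1 overlaps Igf1os, and Igf2 and H19 overlap Gm33148, and whether counting used the strand is not given in the sources used here.

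H19 is the host transcript of miR-675, for which Igf1r is a known target in mouse. The 22-base mature sequences, from RefSeq, are shown because they link H19 to Igf1r among these genes. Their seeds (bases 2 to 8) are in capitals, and both lie on the minus strand of GRCm39 inside H19, at chr7:142130815-142130836 for the 3p arm and chr7:142130849-142130870 for the 5p arm. Mature miRNAs were not measured in these libraries.
miR-675-3p: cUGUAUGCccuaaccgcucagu
miR-675-5p: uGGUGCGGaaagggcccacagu

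The letters that pair with the 3p seed, GCATACA, occurred in 8.92% of 20680 annotated 3′ UTRs, and those for the 5p seed, CCGCACC, in 1.89%. These shares are over UTRs of all lengths, and a longer UTR has more room for a match. Of the 9 coding genes only Igf1r held a match, with 2 to the 3p seed and none to the 5p seed in the canonical transcript. They lie in its 3′ UTR of 7267 bases on the plus strand of GRCm39, at chr7:67876654-67876660 and chr7:67877413-67877419, and are in capitals within 24 bases each.
Igf1r site 1: cctcatcaccccGCATACAcctgc
Igf1r site 2: cgtgaaacatttGCATACAcatcg

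AhR binds DNA at the xenobiotic response element (XRE), whose core is GCGTG. On either strand that core occurred in 32.4% of 32841 RefSeq promoter windows, each from 250 bases before to 50 after a start site. The 12 windows of the members covered 9 genes, and 5 of these 12 windows held the core, each from a different gene: Igf1 (1 core), Igf1r (3), Igf2r (2), Igfbp3 (2) and Igfbp7 (1). None held the longer form TNGCGTG, which 5.07% of all windows had. The Igfbp7 window is printed because Igfbp7 had the lowest P value of the 10 genes in muscle, and the Igf1r window because it held the most cores. The capitals mark cores, written CACGC where the core is on the other strand. The first lies on the minus strand at chr5:77555843-77556142, with its core 187 bases before the start, and the second on the plus strand at chr7:67601755-67602054 of GRCm39.
Igfbp7 promoter: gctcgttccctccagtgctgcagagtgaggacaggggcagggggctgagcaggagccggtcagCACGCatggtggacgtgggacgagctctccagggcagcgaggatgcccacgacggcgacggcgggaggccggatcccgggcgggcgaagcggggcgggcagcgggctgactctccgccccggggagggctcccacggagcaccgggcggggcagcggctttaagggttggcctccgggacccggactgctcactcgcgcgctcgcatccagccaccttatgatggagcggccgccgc
Igf1r promoter: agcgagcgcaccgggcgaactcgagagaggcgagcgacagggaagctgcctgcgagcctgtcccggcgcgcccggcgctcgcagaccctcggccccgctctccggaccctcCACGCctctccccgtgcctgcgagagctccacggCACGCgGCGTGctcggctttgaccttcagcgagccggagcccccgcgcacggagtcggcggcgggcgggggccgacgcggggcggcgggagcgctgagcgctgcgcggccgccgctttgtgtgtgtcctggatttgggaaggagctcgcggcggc

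In skeletal muscle H19 and Igfbp5 stood far above the other members. Per kb of exon, H19 was at 93.7 ± 31.6 CPM per kb (SD, n = 4) and Igfbp5 at 65.8 ± 29.9 in VEH-treated mice. H19 was the higher in 3 of the 4 VEH libraries and their ratio did not exceed its spread. Igf2r followed at 9.84 ± 2.03 CPM per kb, then Igfbp6 at 6.48 ± 3.62, Igfbp4 at 4.08 ± 1.91 and Igfbp7 at 2.83 ± 0.997. Igf2 (2.32 ± 0.721), Igfbp3 (2.10 ± 0.472) and Igf1r (1.77 ± 0.328) formed a close group in which neighbours differed by less than the spread of their ratio. Igf1 was lowest, at 0.641 ± 0.769 CPM per kb, below Igf1r in all 4 libraries. In BAY-treated mice the order was the same but for Igfbp7 (4.03 ± 0.656), which stood above Igfbp4 (3.24 ± 0.698) and did not differ from Igfbp6 (4.55 ± 1.82) beyond the spread.

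**Figure D1:**
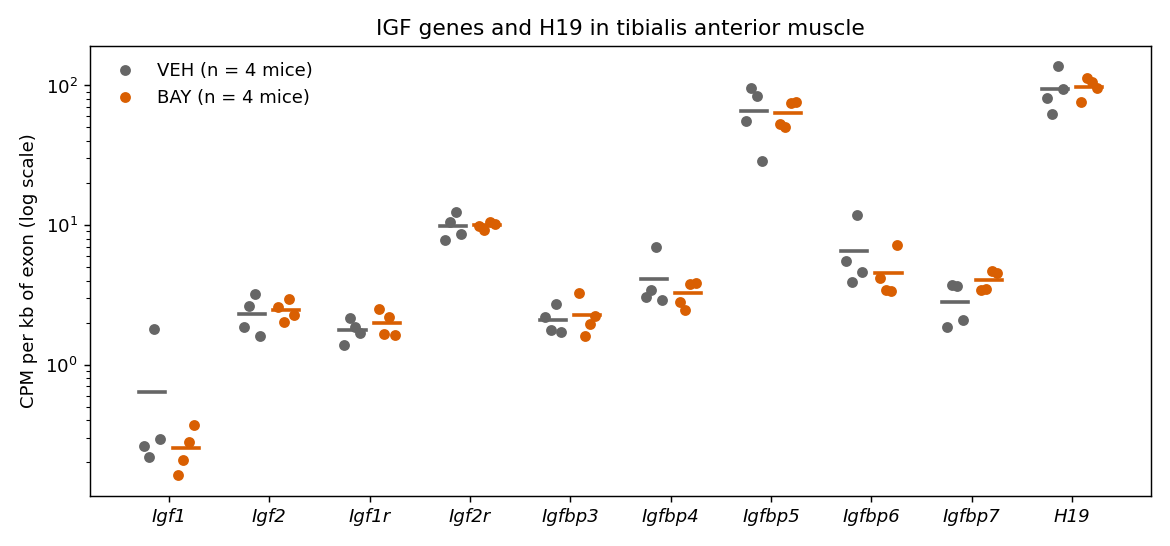
Level of each gene in TA muscle, as CPM per kb of exon on a log axis, for 4 VEH (grey) and 4 BAY (orange) mice, with bars at the group means. The 2 groups overlap for all 10 genes, and 1 VEH library carries the mean of Igf1.

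The ligands were low in muscle. Igf1, the growth factor induced by growth hormone, was at 2.68, 2.23, 18.4 and 2.98 CPM in VEH 1 to 4 and at 1.65, 2.12, 2.84 and 3.79 CPM in BAY 1 to 4, from 12 to 170 reads a library. VEH 3 alone lay above 4 CPM, at 6.86 times the median of the other 7 libraries, and the remaining VEH and BAY values interleaved. The log2 fold change of BAY against VEH, taken on the deposited log2 values with their offset, was -0.78 (SE 0.55, adjusted limma P = 0.667, exact permutation P = 0.429), and -0.08 without VEH 3. The part of the marker lists in which VEH 3 stood apart was not tested. Igf2, the ligand that dominates fetal growth, ranged from 9.90 to 19.6 CPM in VEH and from 12.5 to 18.2 CPM in BAY, a log2 fold change of 0.12 (95% confidence interval -0.34 to 0.57). Within a library Igf1 was at 0.0628 to 0.562 times the level of Igf2 per kb, a ratio that rested on 12 to 27 Igf1 reads in each library but VEH 3.

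The receptors were the steadiest members. Igf1r, the signalling receptor, was at 27.5, 42.9, 36.5 and 33.0 CPM in VEH and at 49.5, 32.6, 43.5 and 32.3 CPM in BAY, with the highest value in BAY 1 and the lowest in VEH 1. Its log2 fold change was 0.17 (interval -0.20 to 0.54), and 0.0504 without BAY 1 and 0.0579 without VEH 1. Igf2r, the clearance receptor, ranged from 73.0 to 116 CPM in VEH and from 86.4 to 98.9 CPM in BAY, a log2 fold change of 0.04 (interval -0.27 to 0.35). The sign of the Igf2r value turned to -0.02 with median centring or quantile normalization. Igf2r exceeded Igf1r per kb in each muscle library, by 3.94 to 6.68 times.

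Igfbp7, which endothelial cells express strongly, was the 1 member with a nominal difference in muscle. It was at 10.1, 20.2, 19.97 and 11.3 CPM in VEH 1 to 4 and at 18.7, 19.1, 25.5 and 24.5 CPM in BAY 1 to 4. VEH 1 and VEH 4 lay below all BAY libraries, VEH 2 and VEH 3 lay above BAY 1 and BAY 2, and BAY 3 and BAY 4 were highest. The log2 fold change was 0.57 (SE 0.23, interval 0.08 to 1.06), with a limma P of 0.0257 that became 0.448 after Benjamini-Hochberg adjustment over all genes. The exact permutation test of the 70 assignments gave P = 0.171 (two-sided), where the smallest possible value is 0.0286. Leaving out VEH 1, VEH 4, BAY 3 or BAY 4 gave log2 fold changes of 0.39, 0.44, 0.49 and 0.51 with limma P values of 0.0996, 0.0868, 0.0807 and 0.0768. The summed endothelial markers (7 of 7 in the table, none at 0) were 190 to 216 CPM in VEH and 220 to 265 CPM in BAY, without overlap. The part of these markers in the Igfbp7 difference was not tested, and in bulk tissue more cells of a type and more RNA per cell cannot be told apart.

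The other binding proteins did not pass the test in muscle. Igfbp5, whose protein is made by differentiating muscle cells and is abundant in bone matrix, was at 334, 574, 501 and 172 CPM in VEH and at 320, 305, 449 and 454 CPM in BAY. The VEH libraries held both the highest and the lowest value, and the log2 fold change was 0.07 (interval -0.59 to 0.72), with its sign turned to -0.03 by quantile normalization. Igfbp4, an inhibitory binding protein that the protease PAPP-A cleaves, was at 13.5, 15.2, 30.7 and 12.9 CPM in VEH and at 12.5, 10.9, 16.8 and 17.1 CPM in BAY. Igfbp6, which prefers IGF2, was at 7.68, 5.44, 16.3 and 6.32 CPM in VEH and at 5.78, 4.73, 4.64 and 9.96 CPM in BAY. VEH 3 was again the highest library for both. Its levels were 2.27 times the median of the others for Igfbp4 and 2.82 times for Igfbp6, beside 2.86 times for the fibroblast marker list. The log2 fold changes were -0.26 (SE 0.25) for Igfbp4 and -0.44 (SE 0.33) for Igfbp6, and 0.03 and -0.11 without VEH 3. The part of this and the other lists in which VEH 3 stood apart was not tested. Igfbp3, the main carrier in serum, ranged from 6.08 to 9.72 CPM in VEH and from 5.71 to 11.7 CPM in BAY, a log2 fold change of 0.09 (interval -0.42 to 0.60).

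H19 was at 232, 178, 390 and 268 CPM in muscle of VEH 1 to 4 and at 216, 321, 300 and 275 CPM in BAY 1 to 4. VEH held the lowest and the highest library, and the log2 fold change was 0.10 (interval -0.35 to 0.55). H19 exceeded Igf2 per kb by 23.8 to 58.5 times. Of the 10 members, VEH 3 was the highest muscle library for 6 (Igf1, Igf2, Igf2r, Igfbp4, Igfbp6 and H19).

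Read against all genes of the muscle table, the members did not stand out. None was called at an unadjusted limma P under 0.05 with a fold change of at least 2, which 2.43% of genes were. With the P value alone, 1 of 10 passed, where 9.79% of all genes did (6.71% higher and 3.07% lower in BAY). No member had groups without overlap, against 5.73% of genes, and no gene of the table passed an adjusted limma P under 0.05 (0%), whereas 1 to 40 genes, none of them a member, did under 6 of the 17 alternatives, 25 of them with voom on recovered reads. The log2 fold change was above 0 for 7 members and below 0 for 3, a count that became 6 and 4 with median centring and 5 and 5 with quantile normalization, and the members' median of 0.08 compares with 0.06 over all genes. The 95% confidence interval lay within a 2-fold change in either direction for 7 of the 10 genes, the exceptions being Igf1, Igfbp6 and Igfbp7.

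**Figure D2:**
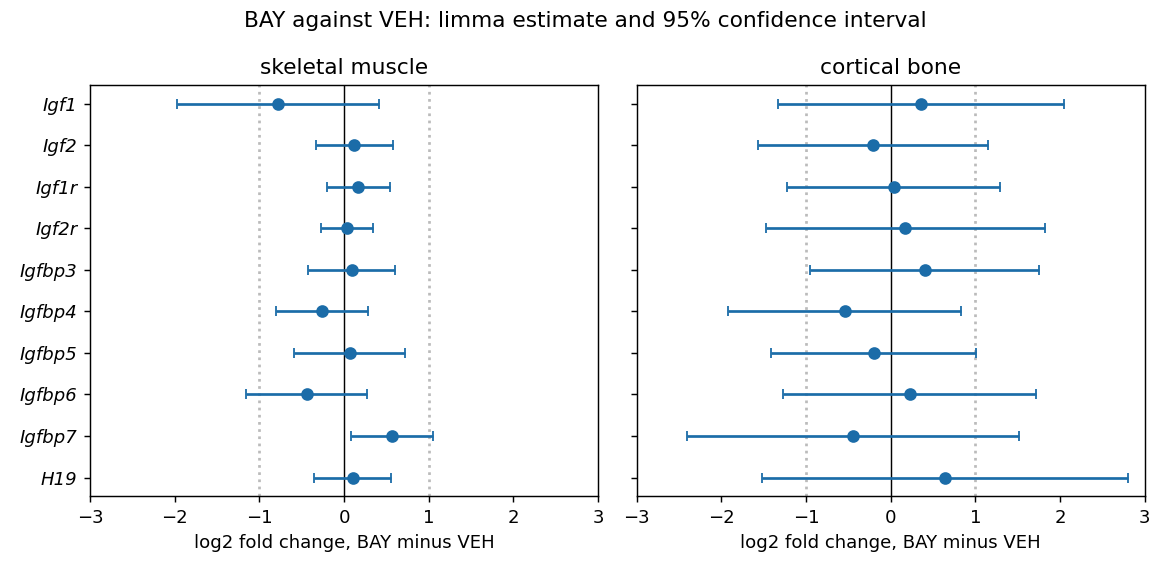
Log2 fold change of BAY against VEH for each gene in muscle (left) and bone (right), with points at the limma estimate, bars for the 95% confidence interval (4 against 4 mice) and dotted lines at a 2-fold change. In muscle 7 of 10 intervals lie between the dotted lines, that of Igf1 is the widest and only that of Igfbp7 misses 0, and all 10 span 0 in bone.

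Other genes of the pathway were read from lists by function. In muscle, 66 of 74 listed genes were in the table, of which 7 were higher and 2 lower at an unadjusted limma P under 0.05, where 9.79% of all genes passed in either direction, and none was called or passed adjustment. Among IGF and insulin signalling genes, 6 of 31 were higher and 1 lower, with a median log2 fold change of 0.03 over the list. Of all genes, 6.71% were higher and 3.07% lower. All 31 averaged at least 1 CPM, and in a fit of genes at that level 1683 of 13170 passed in either direction. Irs2, an adaptor of the insulin and IGF1 receptors, was at 25.4, 43.5, 36.0 and 30.4 CPM in VEH and at 55.9, 43.2, 82.6 and 59.9 CPM in BAY. All BAY libraries but BAY 2 lay above every VEH library, and the log2 fold change was 0.83 (SE 0.20, limma P = 0.00101, adjusted P = 0.275, exact permutation P = 0.0571). Irs1, the related adaptor, was at 118, 149, 126 and 141 CPM in VEH and at 193, 152, 155 and 169 CPM in BAY, without overlap (log2 fold change 0.33, limma P = 0.0228, adjusted P = 0.436, exact permutation P = 0.0286). The limma P of Irs1 no longer passed without VEH 1 or BAY 1, whereas that of Irs2 passed with any library left out.

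Further down the pathway, Pik3r1, the regulatory subunit of PI3-kinase, was lower without overlap. It was at 51.3, 49.5, 87.3 and 51.2 CPM in VEH and at 41.0, 39.0, 43.2 and 40.8 CPM in BAY, a log2 fold change of -0.50 (SE 0.17, limma P = 0.00986, adjusted P = 0.362, exact permutation P = 0.0286) that was -0.31 without VEH 3. Foxo1, a transcription factor restrained by AKT, averaged 23.5 ± 3.59 CPM in VEH and 31.6 ± 3.39 CPM in BAY (SD, n = 4), and the lipid phosphatase gene Inppl1 ranged from 87.5 to 122 CPM in VEH and from 122 to 145 CPM in BAY. Tsc1, a brake on mTORC1, averaged 62.4 ± 10.3 in VEH and 76.4 ± 4.49 CPM in BAY, and Rptor, a subunit of mTORC1, 40.7 ± 5.77 and 51.6 ± 4.60 CPM. Their log2 fold changes lay between 0.30 and 0.44, with adjusted limma P values of 0.355 to 0.480. Foxo1 passed the unadjusted limma test with any library left out. Inppl1 did not pass without VEH 1, VEH 4, BAY 2 or BAY 4, Tsc1 without VEH 1, VEH 4, BAY 1, BAY 3 or BAY 4, and Rptor without VEH 1, BAY 1 or BAY 3.

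Of the 9 growth hormone axis genes, 1 was lower and none higher at that P value. Socs2, a feedback inhibitor of growth hormone signalling, was at 11.6, 31.6, 30.2 and 27.5 CPM in VEH and at 13.8, 13.5, 9.79 and 14.8 CPM in BAY. BAY lay below 3 of the 4 VEH libraries, whereas VEH 1 fell among the BAY values, and the log2 fold change was -0.87 (SE 0.27, limma P = 0.00650, adjusted P = 0.337, exact permutation P = 0.114). Of 16 imprinted growth genes in the table, only Peg3, a zinc finger gene expressed from the paternal copy, passed, at 88.5 to 321 CPM in VEH and 159 to 322 CPM in BAY (log2 fold change 0.72, adjusted limma P = 0.492, exact permutation P = 0.171). Peg3 did not pass when any library but VEH 2 or BAY 2 was left out. With single libraries left out its log2 fold change ran from 0.47 (without VEH 1) to 1.09 (without VEH 2). None of the 8 other ligand carriers and proteases in the table and neither of the IGF2 mRNA-binding proteins there passed. In bone none of the 74 listed genes passed, where 0.64% of all genes did.

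The genes whose muscle levels moved most closely with a member were sought among those averaging 10 CPM or more, by Pearson's r of log2 values over the 8 libraries, as a description only. For Igfbp4 the closest was Col3a1, a fibrillar collagen gene (r = 0.983). For Igf1r it was Meg3, a maternally expressed noncoding RNA (r = 0.953), for Igf2 it was Ltbp4, a matrix protein that binds latent TGF-β (r = 0.975), and for H19 it was Ckmt2, the mitochondrial creatine kinase of muscle (r = 0.966). The closest were Dcun1d3 for Igf2r (r = 0.989), Cd63-ps for Igfbp5 (r = 0.939) and Zmiz2 for Igfbp7 (r = 0.988). All these values share the same libraries and their makeup, VEH 3 included. Igf1, Igfbp3 and Igfbp6 were under the mean required.

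The makeup of the binding proteins is set side by side for the tissues, whose tables were normalized separately, without a test. Igfbp5 made up 71.7 to 88.2% of the summed level per kb of the 5 binding proteins in muscle libraries and 36.3 to 49.3% in bone libraries. Igfbp4 made up 3.17 to 7.30% in muscle and 16.9 to 38.9% in bone. The bone ranges include VEH 2 and BAY 4, in which no member exceeded 3 times the level of olfactory receptor genes, so that reads outside expressed genes were not separated from these shares. Igfbp7 made up 2.72 to 5.21% in muscle of VEH-treated and 4.82 to 5.67% of BAY-treated mice.

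**Figure D3:**
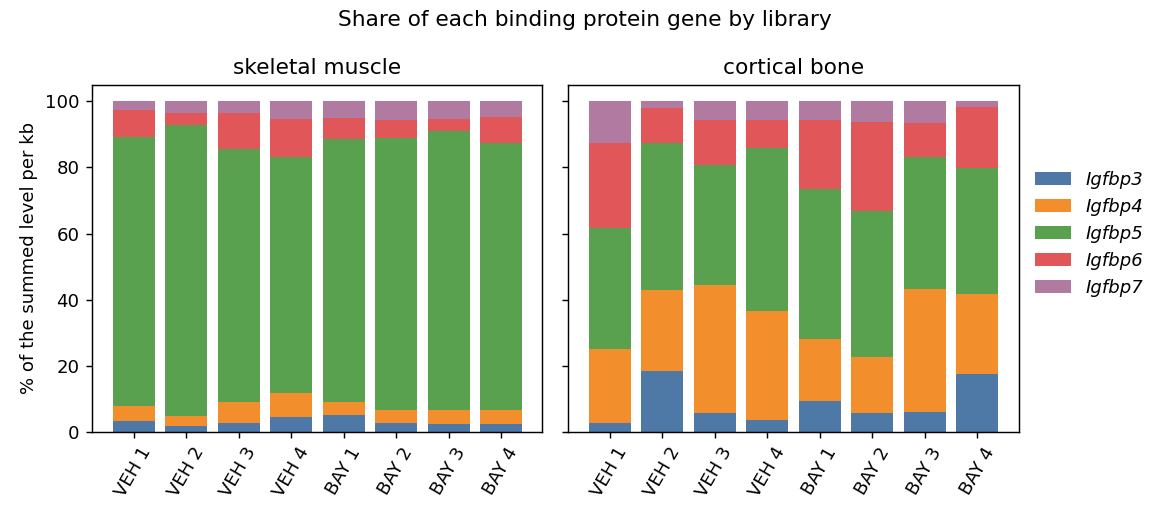
Share of each of 5 binding protein genes in their summed CPM per kb, in percent, as 1 stacked bar per library. Igfbp5 (green) takes 71.7 to 88.2% in each muscle library, whereas in bone Igfbp4 (orange) takes 16.9 to 38.9% and the shares vary between libraries.

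In cortical bone of VEH-treated mice Igfbp5 and Igfbp4 led the members, at 40.3 ± 18.7 and 29.9 ± 16.4 CPM per kb (SD, n = 4), with Igfbp5 the higher in 3 of 4 libraries. H19 followed at 14.9 ± 18.1 and Igfbp6 at 14.1 ± 8.56 CPM per kb, and H19 did not differ from Igfbp4 or Igfbp6 beyond the spread of their ratio. VEH 1 carried the mean of H19, at 41.8 against 4.09 to 9.70 CPM per kb in the other 3, and without it H19 averaged 5.96 and Igfbp6 10.5 CPM per kb. The remaining 6 genes had VEH means of 3.84 to 6.72 CPM per kb and could not be ordered, since their neighbours differed by less than the spread of the ratio. In BAY-treated mice Igfbp5 was at 33.4 ± 10.4, H19 at 25.2 ± 23.9, Igfbp4 at 20.8 ± 15.3 and Igfbp6 at 14.4 ± 4.33 CPM per kb, and neighbours in this order did not differ beyond the spread of their ratio. Against olfactory receptor genes, of which a library's mean level per kb served as a measure of reads outside expressed genes, 31 of the 80 pairs of gene and library were above 3 times that level. VEH 1 contributed all 10 of its genes, and VEH 2 and BAY 4 contributed 0. By gene, Igfbp4 and Igfbp5 exceeded it in 6 libraries each, Igfbp6 in 5, and Igf2r and H19 in 3 each. Igf1r, Igfbp3 and Igfbp7 did so in 2 libraries each, and Igf1 and Igf2 in 1 each.

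**Figure D4:**
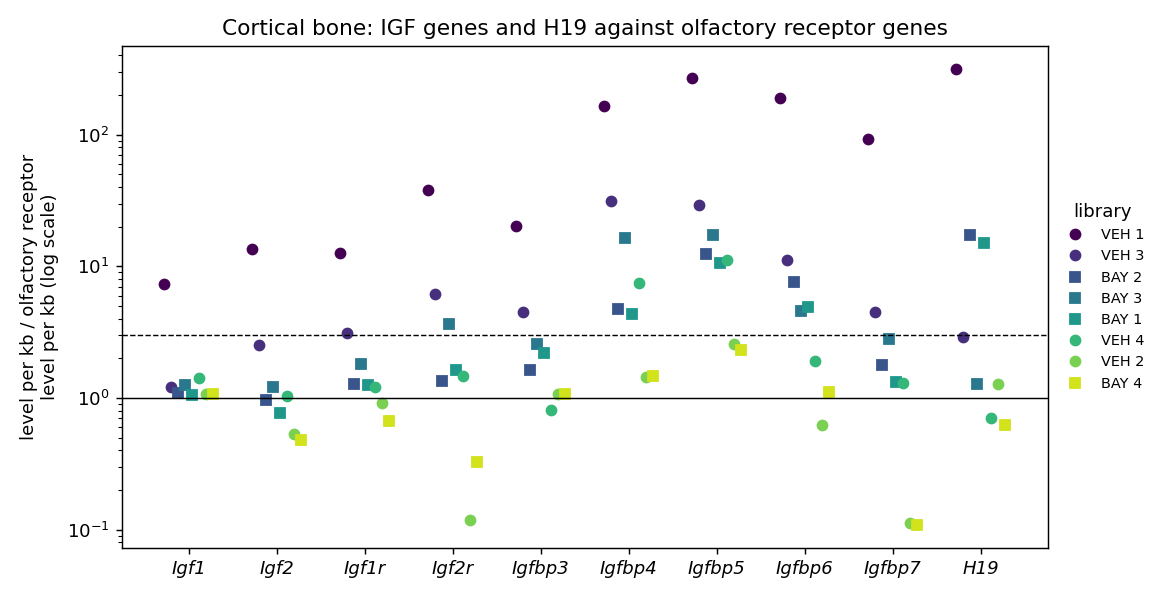
Level per kb of each gene divided by the mean level per kb of olfactory receptor genes in the same bone library, on a log axis, with a solid line at 1 and a dashed line at 3 (circles VEH, squares BAY, libraries ordered by their olfactory receptor level). Igf1 sits near 1 in 7 of 8 libraries, whereas Igfbp4 and Igfbp5 lie above 3 in 6.

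The ligands and Igf1r lay near the olfactory level in bone. Igf1 was at 9.93, 82.9, 17.4 and 84.4 CPM in VEH 1 to 4 and at 33.1, 29.4, 34.1 and 98.9 CPM in BAY 1 to 4. Its 3 highest libraries were those highest in olfactory receptor reads, and its ratio to that level per kb was 1.05 to 1.43 in every library except VEH 1, where it was 7.35. Igf2 ranged from 10.9 to 37.1 CPM in VEH and from 14.7 to 26.7 CPM in BAY, and Igf1r from 32.8 to 138 CPM and from 67.0 to 120 CPM. Both were likewise highest in the 3 libraries with the most olfactory receptor reads, and only VEH 1, and VEH 3 for Igf1r, exceeded 3 times the level. The log2 fold changes were 0.36 (SE 0.78) for Igf1, -0.21 (SE 0.63) for Igf2 and 0.03 (SE 0.58) for Igf1r. The signs for Igf1 and Igf1r turned with median centring (-0.49 and -0.82) and with array weights (-0.46 and -0.53), and that for Igf1r also with quantile normalization (-0.10), whereas Igf2 was at -1.06, -0.52 and -0.61 in these fits.

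Igfbp4, Igfbp5 and Igf2r were instead highest in the 3 bone libraries with the most osteoblast and osteocyte transcripts. Igfbp4 was at 95.8, 47.9, 195 and 191 CPM in VEH and at 59.9, 55.4, 193 and 59.1 CPM in BAY. VEH 3, VEH 4 and BAY 3 lay between 191 and 195 CPM and the other 5 libraries between 47.9 and 95.8 CPM. Igfbp5 was at 215, 117, 248 and 388 CPM in VEH and at 198, 197, 280 and 127 CPM in BAY, with 248 to 388 CPM in those 3 libraries. Igf2r was at 46.7, 8.29, 80.8 and 80.1 CPM in VEH and at 47.4, 33.5, 91.7 and 27.9 CPM in BAY. The same 3 libraries were also the highest for the osteoclast list (791 to 1093 against 105 to 253 CPM in the other 5), the neutrophil list (526 to 2013 against 56.3 to 209 CPM), the macrophage list (139.6 to 305 against 41.5 to 102 CPM) and the cartilage and tendon list (769 to 1022 against 253 to 609 CPM). The log2 fold changes were -0.54 (SE 0.64) for Igfbp4, -0.20 (SE 0.56) for Igfbp5 and 0.17 (SE 0.76) for Igf2r, and the part of these marker lists in them was not tested. The sign turned to -0.68 for Igf2r with median centring and to 0.40 for Igfbp5 with array weights.

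H19 in bone was highest in the 3 libraries with the most fibre transcripts. It was at 119, 27.6, 11.7 and 11.6 CPM in VEH 1 to 4 and at 132, 129, 9.68 and 16.1 CPM in BAY 1 to 4. VEH 1, BAY 1 and BAY 2 lay between 119 and 132 CPM, and the other 5 libraries at or below 27.6 CPM. The log2 fold change was 0.64 (SE 1.00). It was -0.32 in the 5 libraries low in fibre markers (VEH 2 to 4, BAY 3 and BAY 4) and 1.12 in the 6 deeper libraries. Left out singly, VEH 1 gave 1.38, BAY 3 1.33, BAY 4 1.09, VEH 3 and VEH 4 0.26 each, BAY 1 0.0739 and BAY 2 0.0828. For each 1000 CPM of fibre markers, H19 was at 0.494 to 1.28 CPM in muscle libraries and at 1.42 to 31.1 CPM in bone libraries. In bone VEH 2 to 4, BAY 3 and BAY 4 this ratio rested on 15 to 33 H19 reads, at 0.625 to 2.93 times the olfactory level per kb. H19 was thus not separated there from reads outside expressed genes. VEH 1, BAY 1 and BAY 2 were also the highest for the satellite cell list (397 to 1033 against 58.4 to 163 CPM in the other 5). The part of fibre and satellite cell transcripts in bone H19 was not tested further.

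**Figure D5:**
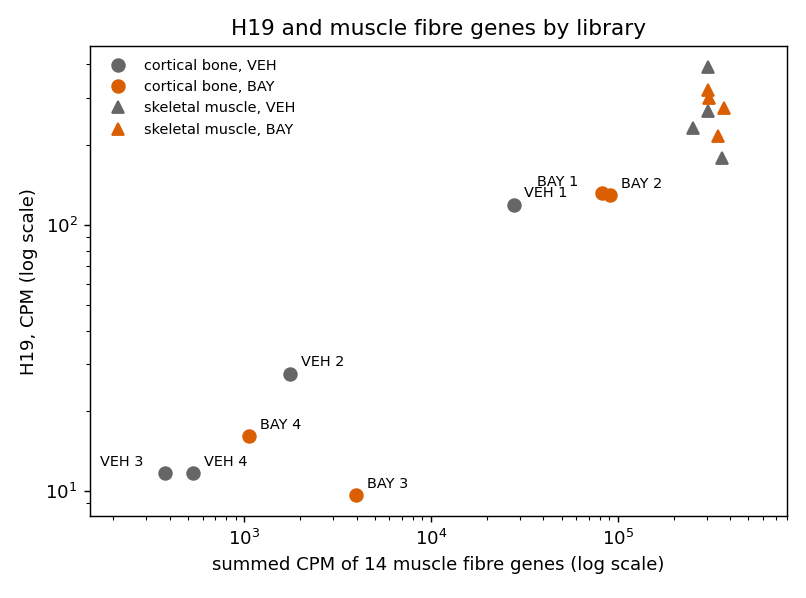
H19 in CPM against the summed CPM of 14 muscle fibre genes in each of 16 libraries, both on log axes (circles bone, triangles muscle, grey VEH, orange BAY). Bone VEH 1, BAY 1 and BAY 2 lie nearest the muscle libraries on both axes, and the other 5 bone libraries stay at or below 27.6 CPM of H19.

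Igfbp7 in bone was at 66.7, 4.60, 34.4 and 40.8 CPM in VEH and at 22.4, 25.6, 40.7 and 5.37 CPM in BAY. It was lowest, and at 0.112 and 0.109 times the olfactory level per kb, in VEH 2 and BAY 4, the libraries with the fewest reads, where it had 5 reads each. Its log2 fold change was -0.44 (SE 0.91), and 1.26 with array weights. Igfbp6 ranged from 6.44 to 34.5 CPM in VEH and from 13.97 to 27.7 CPM in BAY (log2 fold change 0.22, SE 0.69), and Igfbp3 from 9.49 to 28.5 CPM and from 15.3 to 34.4 CPM (log2 fold change 0.40, SE 0.63). Igfbp3 exceeded 3 times the olfactory level only in VEH 1 and VEH 3. In VEH 2, Igfbp6 was at 0.621 times that level, on 7 reads.

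No member was called in bone, where 0.64% of genes were, and none had a limma P under 0.05, a share again of 0.64% over all genes (0.545% higher and 0.095% lower in BAY). The groups overlapped for all 10 members, and 0.406% of genes had groups without overlap. Adjusted limma P values of the members ran from 0.887 to 1.00, and no gene of the table passed adjustment (0%), whereas 31 did without the mean-variance trend and 1 with a pseudocount of 1, none of them a member. The log2 fold change was above 0 for 6 members and below 0 for 4, with a median of 0.10. The median over all bone genes was 0.84, and with median centring all 10 members were below 0 with a median of -0.75. That all-gene median depended on VEH 1, where 13185 genes were listed at 0, against 3371 in VEH 3 and 1393 in BAY 4. Without VEH 1 it was -0.09, and the members had a median of -0.10, with 5 above and 5 below 0. Every member's 95% confidence interval spanned more than a 4-fold range, so that changes of the size seen for Igfbp7 in muscle were not detectable at this depth and spread.

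The BAY effect was also compared between the tissues, in a limma fit of the 20526 genes that both tables hold. For Igfbp7 the effect in muscle exceeded that in bone by 1.01 on the log2 scale (SE 0.95, limma P = 0.301, exact permutation P = 0.360). For Igf1 the effect in muscle minus that in bone was -1.14 (SE 1.03, limma P = 0.282, exact permutation P = 0.342), the lowest P values of the 10. With median centring these differences were 1.82 and -0.33, and without muscle VEH 3 they were 1.16 and -0.44. None of the members had a P value under 0.05 for this difference in any of these fits, against 2.07% of shared genes in the first. The exact permutation test over 4900 assignments within tissues gave P values of 0.342 to 0.899. Both tests took the libraries of the tissues as independent, and whether the tissues came from the same mice is not stated.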

How the data were processed

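Per the labels, RNA of cortical bone was isolated with TRIzol and that of muscle with a Maxwell kit, and libraries were sequenced on a NovaSeq instrument. Poly(A)-selected stranded libraries are described after the muscle extraction, and whether this covers bone is not stated. After trimming, the authors aligned reads to mm39 with STAR (2.7.8a), assigned them to Ensembl genes with Partek's E/M algorithm, scaled them to CPM and deposited log2 values of CPM plus an offset, which the lowest values put at 0.0004 in muscle and 0.0001 in bone. Each tissue has a table of its own.

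Log2 and offset were undone to give CPM. The worth of 1 read was found from the steps of low values. Between 81.3 and 88.5% of values up to 50 reads were whole to within 0.02, and 3 reads served as the floor, for counting error only. Levels per kb used GENCODE exon lengths, found for 99.4% and 98.9% of genes.

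BAY and VEH were compared within each tissue by limma (3.58.1, R 4.3.3; lmFit, eBayes with trend) on the deposited log2 values of all genes, without covariates, with Benjamini-Hochberg adjustment over all genes. The authors' methods name limma-voom, but since the tables hold log2 values and not counts, voom on recovered reads was an alternative. Single genes were also compared by exact permutation. Replicates are separate mice. The tests were run on simulated data first. Other steps used Python (3.11.15), pandas (2.3.3), numpy (2.4.6) and scipy (1.17.1).

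All 10 members were named. Other pathway genes were named at an unadjusted P under 0.05 with a mean of at least 1 CPM, and genes alike in level by the highest r. The members and lists were chosen with earlier results of these data known. Alternatives were the pseudocount, a filter on low values, 2 other scalings, eBayes without trend, array weights, voom, the replicate block and each library left out. 3 more for bone were chosen after seeing the data: libraries low in fibre markers, deeper libraries, and subtraction of the olfactory receptor level per kb, with negative values set to 0 and 1 CPM added before log2, which put 5 of the 10 members at that floor in VEH 2, 5 in BAY 4, 2 in VEH 4 and 1 each in BAY 1 and BAY 2. The tissue difference with median centring and without muscle VEH 3 was also added then.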

Additional observations from a re-analysis of the deposited data

Results flagged for a closer look

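In 3 of 40 groups of 4 libraries, 1 library lay far from its group by Dixon's criterion on the gap to its nearest neighbour as a share of the group's range, both on the log2 scale (chance gives about 1 in 20 groups). Igf1 in muscle VEH 3 was at 18.4 CPM, with a gap of 0.862 of the range. Igf1 in bone BAY 4 was at 98.9 CPM, with a gap of 0.876, and this library had the highest share of olfactory receptor reads (3.52%). Igfbp4 in bone BAY 3 was at 193 CPM, with a gap of 0.938, and this was the BAY library highest in osteoblast and osteocyte markers. No cause was tested for any of them.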

How the results depend on the processing

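No member was called under any alternative in either tissue. Over the 17 alternatives for muscle, Igf1 and Igfbp6 stayed below 0 and Igf1r and Igfbp7 above 0, and Igfbp7 had a limma P under 0.05 in 12. It was lost without the trend and in 4 of 8 fits with a library left out (log2 fold change 0.39 to 0.72). Signs turned for Igf2r with median centring (-0.0153) and quantile normalization (-0.0189), and for Igfbp5 with the latter (-0.0259). With single libraries left out, log2 fold changes ran from -1.09 to -0.0765 for Igf1, -0.69 to -0.11 for Igfbp6, 0.0504 to 0.27 for Igf1r, -0.0409 to 0.29 for Igf2, -0.0671 to 0.15 for Igf2r, -0.10 to 0.24 for Igfbp3, -0.39 to 0.0258 for Igfbp4, -0.29 to 0.29 for Igfbp5 and -0.0728 to 0.30 for H19.

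In bone, Igf2 stayed below 0 under all alternatives but leaving out VEH 4, and Igfbp4 under all. Median centring gave -0.49 for Igf1, -1.06 for Igf2, -0.82 for Igf1r, -0.68 for Igf2r, -0.45 for Igfbp3, -1.39 for Igfbp4, -1.05 for Igfbp5, -0.63 for Igfbp6, -1.30 for Igfbp7 and -0.21 for H19. Array weights gave -0.46 for Igf1, -0.52 for Igf2, -0.53 for Igf1r, 1.30 for Igf2r, -0.23 for Igfbp3, -0.15 for Igfbp4, 0.40 for Igfbp5, 1.09 for Igfbp6, 1.26 for Igfbp7 and 1.80 for H19. Quantile normalization gave -0.10 for Igf1r and voom -0.0541 for Igfbp6. The low-fibre libraries gave -0.14 for Igf1r and -0.32 for H19, the deeper libraries -0.35 for Igf2r and -0.0739 for Igfbp6, and subtraction of the olfactory level -0.99 for Igf1, -1.63 for Igf2, -0.50 for Igf1r, -0.69 for Igf2r and 0.82 for Igfbp3, with members at its floor in 5 of the 8 libraries. Leaving out single libraries gave -0.22 to 0.81 for Igf1, -0.54 to 0.0471 for Igf2, -0.43 to 0.26 for Igf1r, -0.58 to 0.52 for Igf2r, 0.10 to 0.63 for Igfbp3, -0.98 to -0.29 for Igfbp4, -0.51 to 0.0685 for Igfbp5, -0.23 to 0.58 for Igfbp6, -1.27 to 0.16 for Igfbp7 and 0.0739 to 1.38 for H19. The causes were not tested.

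By level in VEH-treated mice, 5 of 10 members kept their rank in muscle and 2 in bone without division by length, and 10 and 6 by medians. In BAY-treated mice these counts were 4 and 2, and 8 and 4. Over all genes, 510 were called in muscle (280 higher, 230 lower) and 52 to 700 under alternatives, of which 238 and 282 with quantile normalization and 489 and 211 with voom. In bone 249 were called (212 higher, 37 lower) and 82 to 1433 under alternatives, of which 295 and 148 with median centring, 250 and 455 with quantile normalization and 1431 and 2 with voom, and 1116 were called without VEH 2.

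Same-numbered mice are different animals in the VEH and BAY groups, and their deviations correlated by -0.09 to 0.01 in muscle and -0.11 to 0.19 in bone, so the numbers were not taken as pairs. With the replicate block 0 members were called in either tissue, and Igfbp7 in muscle kept 0.57 and its side of the threshold. Of the 9 other pathway genes named in muscle, Irs1, Inppl1, Tsc1 and Peg3 lost a P under 0.05 with the block, these, Pik3r1 and Rptor without the trend, and Irs1 with median centring.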
